A study of Mus musculus with 6 samples.

Results

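The genes examined here were those of bile acid synthesis in the liver, namely 9 genes of the synthesis and conjugation pathway (*Cyp7a1*, *Cyp7b1*, *Cyp8b1*, *Cyp27a1*, *Hsd3b7*, *Akr1d1*, *Amacr*, *Slc27a5* and *Baat*) and *Nr0b2*, which encodes the corepressor SHP. They were listed by name, with no measured value in the rule, though with earlier results of these data known. They make up 10 of the 54115 genes of the annotation. All 10 passed the filter on low counts. The study sequenced amplified full-length cDNA (SMART-seq HT, Nextera XT) from the liver RNA of male mice aged 24 months that had been fasted for 16 h, 3 wild-type (WT) and 3 *Sirt7* knockout (KO), as part of its work on how the deacylase SIRT7 bears on hepatic FGF21 expression in old age. WT and *Sirt7* KO mice were littermates of heterozygous crosses, from a knockout line that had been backcrossed to C57BL/6J over several generations. The knockout was inherited through the germ line and not confined to the liver, so differences that begin in hepatocytes and those that reach the liver from other organs cannot be told apart. Each liver came from a separate mouse, as the labels call the samples biological replicates.

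Bile acids are made from cholesterol in hepatocytes by a classic route, which CYP7A1 opens, and an alternative route, which CYP27A1 and CYP7B1 serve. CYP8B1 adds the 12-alpha-hydroxyl group that separates cholic acid from the other primary bile acids, and later enzymes change the steroid ring, shorten the side chain and couple the acid to taurine or glycine. Returning bile acids activate the receptor FXR, which induces SHP, and SHP represses *Cyp7a1* and *Cyp8b1*. In mice the pathway is also known to follow feeding, the time of day and, for *Cyp7b1*, sex.

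Promoter sequence was at hand for 5 of the 10 genes, as the 250 bases before the RefSeq start site on GRCm38.p6. Each was searched on both strands for AAGGTCA (a site bound by LRH-1), AAGTCCA (the core of an HNF4 site), CACGTG (the E-box bound by clock factors) and TATAAA (the TATA box). Among 32851 promoters of the same length, AAGGTCA was found in 4.08%, AAGTCCA in 3.36%, CACGTG in 6.02% and TATAAA in 12.4%. Both promoters that held any of these motifs are printed 5′ to 3′ on the strand of the gene, with the matches in capitals: *Nr0b2* (chr4:133553126-133553375, plus strand), with CACGTG from 195 bases and TATAAA from 28 bases before the start, and *Cyp8b1* (chr9:121916306-121916555, minus strand), with AAGTCCA from 65 bases and TATAAA from 31 bases before it.
Nr0b2: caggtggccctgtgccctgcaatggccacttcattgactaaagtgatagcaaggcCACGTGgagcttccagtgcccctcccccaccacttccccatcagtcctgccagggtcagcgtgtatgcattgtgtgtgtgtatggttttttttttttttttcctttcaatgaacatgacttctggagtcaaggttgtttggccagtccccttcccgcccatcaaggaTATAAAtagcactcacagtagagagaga
Cyp8b1: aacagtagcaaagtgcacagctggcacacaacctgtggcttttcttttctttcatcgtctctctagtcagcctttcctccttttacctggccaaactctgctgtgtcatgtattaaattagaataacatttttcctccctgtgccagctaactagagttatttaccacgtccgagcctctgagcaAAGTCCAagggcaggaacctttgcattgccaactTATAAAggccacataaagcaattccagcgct
The windows of *Cyp27a1*, *Hsd3b7* and *Akr1d1* held none of the 4 motifs. A match describes the letters only, and nothing about binding was measured.

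The livers had 9994860 to 13424776 reads assigned to transcripts, and levels below are CPM, each library's reads on a gene scaled to a common total after TMM normalization. *Sirt7* itself had 55.2, 45.5 and 47.3 CPM in the WT livers and 28.6, 41.8 and 40.8 CPM in the *Sirt7* KO livers, a log2 fold change of -0.41 (SE 0.18, edgeR adjusted p = 0.423) that turned to 0.81 in DESeq2 with transcript length offsets. The gene total also counts reads of any exons that the mutant allele keeps, so it is no close check of the genotype labels. The study genotyped its mice by PCR on tail DNA. WT replicate 1 stood apart, with the lowest level of the 6 livers in 12 of 14 tested male-biased genes and in 14 of 16 genes of cholesterol synthesis. The 6 hepatocyte markers together held 50600 to 54900 CPM in WT livers and 56180 to 64970 CPM in *Sirt7* KO livers, as liver tissue would. Their sum was thus higher in every *Sirt7* KO liver, although 5 of the 6 markers overlapped between the genotypes when taken singly, and its part in the values below was not tested. In such bulk samples, fewer cells of a type and less RNA per cell cannot be told apart.

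In the comparison of genotypes, all 10 genes had a higher mean in *Sirt7* KO livers, and none passed the call threshold. The difference was largest for *Cyp7b1*, the oxysterol 7-alpha-hydroxylase of the alternative route (2.27-fold), and next for *Nr0b2* (1.64-fold). *Cyp7b1*, *Nr0b2*, *Hsd3b7* and *Amacr* had an unadjusted p under 0.05, and these 4 were also the genes in which every *Sirt7* KO liver lay above every WT liver. *Cyp7a1*, the rate-limiting enzyme of the classic route, and *Cyp8b1* overlapped between the genotypes and varied most among the WT livers.

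A call needed an adjusted p under 0.05 and a fold change over 1.5 in edgeR's quasi-likelihood test over 12524 genes. Of the 10 genes 0 were called, beside 0.00798% of all tested genes, which is the single gene *Apol9b*. DESeq2, with and without length offsets, called 1 of the 10, *Cyp7b1*, beside 1.87% and 1.77% of all genes it tested. edgeR with no filter on low counts called *Cyp7b1* and *Nr0b2*, beside 2.27% of all genes, and edgeR without *Sirt7* KO replicate 1 called *Cyp7b1*, beside 1.95%. The fit with no filter gave similar SEs to genes of unlike spread. They were 0.19 for *Cyp7a1* and 0.20 for *Cyp8b1*, against 0.54 and 0.51 in the main fit. Its calls thus took little account of how far a gene varied between livers. At an unadjusted p under 0.05, 4 of the 10 were higher in *Sirt7* KO livers, where 6.54% of all tested genes were, and 0 of the 10 were lower, where 4.78% were. Every *Sirt7* KO liver lay above every WT liver for 4 of the 10, and for 8.74% of all tested genes. The log2 fold change was above 0 for 10 of the 10 and for 49.3% of all tested genes, and its median was 0.42 over the 10 and -0.01 over all tested genes. As the list was chosen with earlier results of these data known, these shares are a description only.

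**Figure D1:**
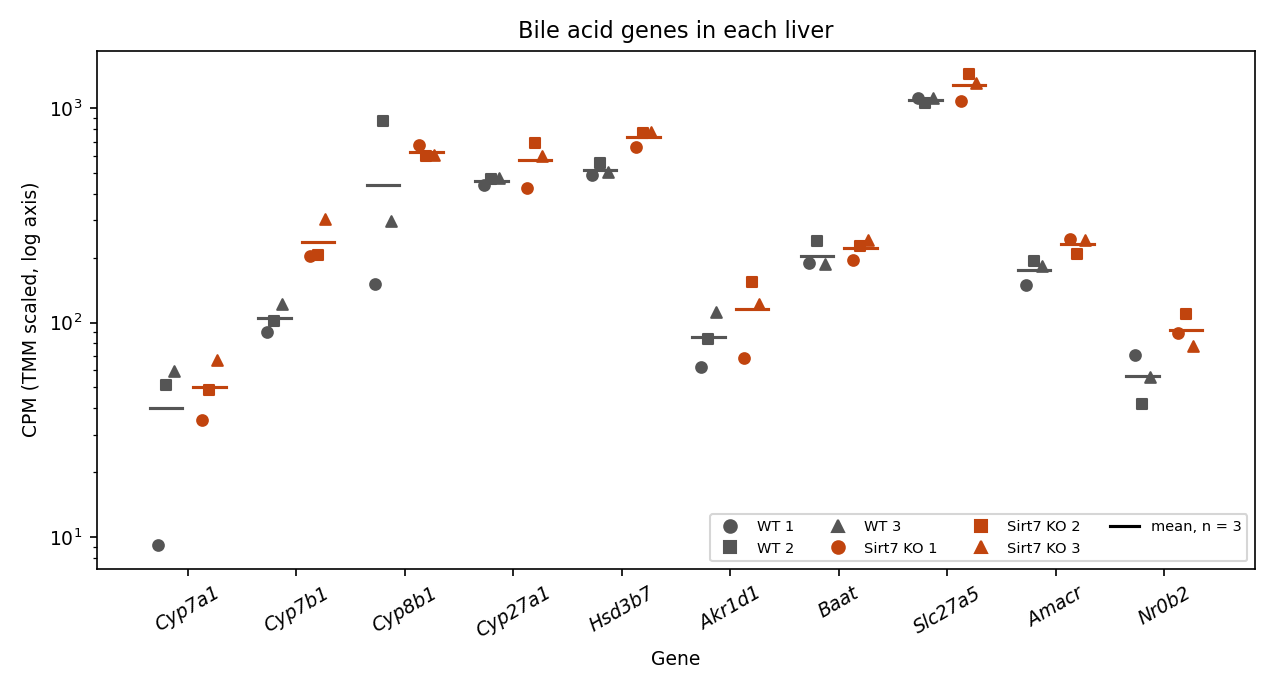
Level of each bile acid gene in each liver, in TMM-scaled CPM on a log axis, with WT livers in grey and *Sirt7* KO livers in orange, replicates 1 to 3 as circle, square and triangle, and the mean of 3 as a bar. For *Cyp7b1* the WT livers lie between 90.9 and 123 CPM and the *Sirt7* KO livers between 206 and 304 CPM, and for *Cyp7a1* WT replicate 1 lies alone at 9.15 CPM.

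*Cyp7a1* (ENSMUSG00000028240.2, chr4:6265612-6275633, minus strand) had 9.15, 51.4 and 59.7 CPM in WT livers and 35.0, 48.6 and 66.6 CPM in *Sirt7* KO livers. The genotypes overlapped, and WT replicate 1 was far below every other liver. The mean was 40.1 ± 27.1 CPM (SD, n = 3) in WT and 50.1 ± 15.8 CPM (SD, n = 3) in *Sirt7* KO livers, a log2 fold change of 0.32 (SE 0.54, 95% interval -0.91 to 1.55, edgeR adjusted p = 0.874). Without WT replicate 1 the log2 fold change was -0.16 (SE 0.26, edgeR adjusted p = 0.928). The interval with all livers ran from 0.532-fold to 2.93-fold, so these livers did not resolve the sign of any difference in the rate-limiting enzyme.

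*Cyp8b1* (ENSMUSG00000050445.4, chr9:121914356-121916305, minus strand, a gene of 1 exon) had 152, 870 and 299 CPM in WT livers and 673, 597 and 609 CPM in *Sirt7* KO livers. The 3 *Sirt7* KO livers lay close together, inside the range of the WT livers, of which replicate 2 was the highest of all 6 and replicate 1 the lowest. The SD was 379 CPM around a mean of 440 CPM in WT (n = 3) and 41.1 CPM around 626 CPM in *Sirt7* KO livers (n = 3), and the log2 fold change was 0.51 (SE 0.51, 95% interval -0.64 to 1.66, edgeR adjusted p = 0.759). This value moved with each WT liver left out. It was 0.09 without WT replicate 1, 0.29 without WT replicate 3 and 1.47 without WT replicate 2 (for the last, edgeR unadjusted p = 0.00115, adjusted p = 0.34).

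*Cyp7b1* (ENSMUSG00000039519.6, chr3:18071950-18243338, minus strand) had 90.9, 102 and 123 CPM in WT livers and 206, 206 and 304 CPM in *Sirt7* KO livers. The genotypes did not overlap, and even the lowest *Sirt7* KO liver lay well above the highest WT liver. The mean was 105 ± 16.0 CPM (SD, n = 3) in WT and 238 ± 56.5 CPM (SD, n = 3) in *Sirt7* KO livers, a log2 fold change of 1.18 (SE 0.20, 95% interval 0.73 to 1.63), that is 2.27-fold with an interval of 1.66 to 3.10. This ranked 28 of 12524 by p (edgeR unadjusted p = 0.000234), and its adjusted p of 0.104 missed the threshold. The exact two-sided permutation test gave p = 0.1, the smallest that 3 livers against 3 allow. DESeq2 called it (adjusted p = 1.03e-05, and 0.000186 with length offsets), as did edgeR without *Sirt7* KO replicate 1 (adjusted p = 0.0253). Without WT replicate 1 the log2 fold change was 1.08 (edgeR adjusted p = 0.201).

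*Cyp27a1* (ENSMUSG00000026170.6, chr1:74713574-74737892, plus strand), the mitochondrial sterol 27-hydroxylase that opens the alternative route and also oxidizes the side chain in the classic one, had 438, 466 and 474 CPM in WT livers and 424, 692 and 600 CPM in *Sirt7* KO livers. The WT livers were tightly grouped, and *Sirt7* KO replicate 1 lay below them while the other *Sirt7* KO livers lay above. The log2 fold change was 0.32 (SE 0.19, 95% interval -0.12 to 0.75, edgeR adjusted p = 0.589).

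Within a liver, the ratio of 2 genes does not depend on the scaling of the library. *Cyp7b1* was at 9.94, 1.99 and 2.05 times the CPM of *Cyp7a1* in WT livers and at 5.87, 4.24 and 4.56 times in *Sirt7* KO livers. WT replicate 1 lay above and WT replicates 2 and 3 below all *Sirt7* KO livers. The mean log2 ratio differed by 0.49 between *Sirt7* KO and WT livers, and over the livers left out in turn it ran from 0.10 without WT replicate 2 to 1.26 without WT replicate 1. *Cyp8b1* stood at 16.7, 16.9 and 5.01 times *Cyp7a1* in WT and at 19.3, 12.3 and 9.14 times in *Sirt7* KO livers, a mean log2 difference of 0.20 that ran from -0.38 without WT replicate 3 to 0.50 without WT replicate 2. These spans overlapped, although *Cyp7a1* and *Cyp8b1* were both lowest in WT replicate 1. *Cyp27a1* stood at 47.9, 9.07 and 7.94 times *Cyp7a1* in WT and at 12.1, 14.2 and 9.01 times in *Sirt7* KO livers, with a mean log2 difference of -0.38 that ran from -0.85 without WT replicate 3 to 0.45 without WT replicate 1. *Nr0b2* stood at 7.76, 0.811 and 0.932 times *Cyp7a1* in WT and at 2.56, 2.25 and 1.17 times in *Sirt7* KO livers, with a mean log2 difference of 0.06 that ran from -0.51 without WT replicate 2 to 1.12 without WT replicate 1. All 4 differences thus moved most with a single WT liver left out, though only that of *Cyp7b1* kept its sign throughout. Without *Sirt7* KO replicate 1, those of *Cyp8b1* and *Nr0b2* were -0.08 and -0.16, and without *Sirt7* KO replicate 2 that of *Nr0b2* was -0.06. With TPM summed over transcripts, *Cyp8b1* and *Nr0b2* stood at -0.19 and -0.33. *Cyp7b1* and *Cyp27a1* kept their signs on that scale, at 0.10 and -0.79. No test was made of the ratios.

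*Hsd3b7* (ENSMUSG00000042289.11, chr7:127800604-127803802, plus strand), whose enzyme oxidizes the 3-beta-hydroxyl group of the 7-alpha-hydroxylated sterols of both routes, had 487, 559 and 505 CPM in WT livers and 660, 766 and 779 CPM in *Sirt7* KO livers. The genotypes did not overlap, and the spread within each was small. The mean was 517 ± 37.1 CPM (SD, n = 3) in WT and 735 ± 65.0 CPM (SD, n = 3) in *Sirt7* KO livers, a log2 fold change of 0.51 (SE 0.15, 95% interval 0.17 to 0.84, edgeR unadjusted p = 0.00773, adjusted p = 0.244, exact permutation p = 0.1). Of the 31-base words of *Hsd3b7* transcripts, 54.8% also occur in *Gm49388*, a gene that overlaps it on the same strand. Salmon assigned *Gm49388* 0 reads in 5 livers and 8 reads in *Sirt7* KO replicate 3, and reads of the stretch they share cannot be told apart. *9430064I24Rik*, on the other strand of the locus, had 2.41 to 8.88 CPM, and these library kits do not mark the strand.

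*Akr1d1* (ENSMUSG00000038641.12, chr6:37530173-37568815, plus strand), the delta-4-3-oxosteroid 5-beta-reductase that gives bile acids their bent ring, had 62.1, 84.1 and 112 CPM in WT livers and 68.3, 156 and 122 CPM in *Sirt7* KO livers. Replicate 1 was the lowest liver of each genotype, and the genotypes overlapped. The log2 fold change was 0.42 (SE 0.31, edgeR adjusted p = 0.658), and its interval spanned 0.828-fold to 2.17-fold.

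*Amacr* (ENSMUSG00000022244.7, chr15:10981756-10996626, plus strand), whose racemase turns the side chain into the form that peroxisomal oxidation accepts, had 149, 194 and 184 CPM in WT livers and 246, 210 and 243 CPM in *Sirt7* KO livers. The genotypes did not overlap, though *Sirt7* KO replicate 2 and WT replicate 2 were close. The mean was 176 ± 23.3 CPM (SD, n = 3) in WT and 233 ± 20.1 CPM (SD, n = 3) in *Sirt7* KO livers, a log2 fold change of 0.41 (SE 0.16, 95% interval 0.06 to 0.76, edgeR unadjusted p = 0.027, adjusted p = 0.364, exact permutation p = 0.1). Without WT replicate 1 it was 0.30 (edgeR unadjusted p = 0.0958).

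*Slc27a5* (ENSMUSG00000030382.15, chr7:12988346-12998192, minus strand) encodes the bile acyl-CoA synthetase, and *Baat* (ENSMUSG00000039653.9, chr4:49489422-49506557, minus strand) the transferase that then attaches taurine or glycine. *Slc27a5* had 1117, 1057 and 1114 CPM in WT livers and 1088, 1443 and 1315 CPM in *Sirt7* KO livers, with a log2 fold change of 0.23 (SE 0.16, edgeR adjusted p = 0.653). *Baat* had 189, 240 and 188 CPM in WT livers and 196, 229 and 244 CPM in *Sirt7* KO livers, with a log2 fold change of 0.12 (SE 0.16, edgeR adjusted p = 0.836). Both conjugation genes overlapped between the genotypes. The upper limits of their 95% intervals were 1.51-fold for *Slc27a5* and 1.39-fold for *Baat*.

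*Nr0b2* (ENSMUSG00000037583.2, chr4:133553376-133556536, plus strand), the FXR target whose product SHP represses the synthesis enzymes, had 71.0, 41.6 and 55.6 CPM in WT livers and 89.5, 109 and 77.6 CPM in *Sirt7* KO livers. The genotypes did not overlap, and WT replicate 1, low for most of the other genes, was here the highest WT liver. The mean was 56.1 ± 14.7 CPM (SD, n = 3) in WT and 92.2 ± 16.0 CPM (SD, n = 3) in *Sirt7* KO livers, a log2 fold change of 0.72 (SE 0.22, with the fold change of 1.64 between 1.17 and 2.30 in its 95% interval, edgeR unadjusted p = 0.00894, adjusted p = 0.254, exact permutation p = 0.1). The repressor and its target *Cyp8b1* both had the higher mean in *Sirt7* KO livers, the former without and the latter with overlap. The value for *Nr0b2* was 0.92 without WT replicate 1 and 0.54 without WT replicate 2.

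**Figure D2:**
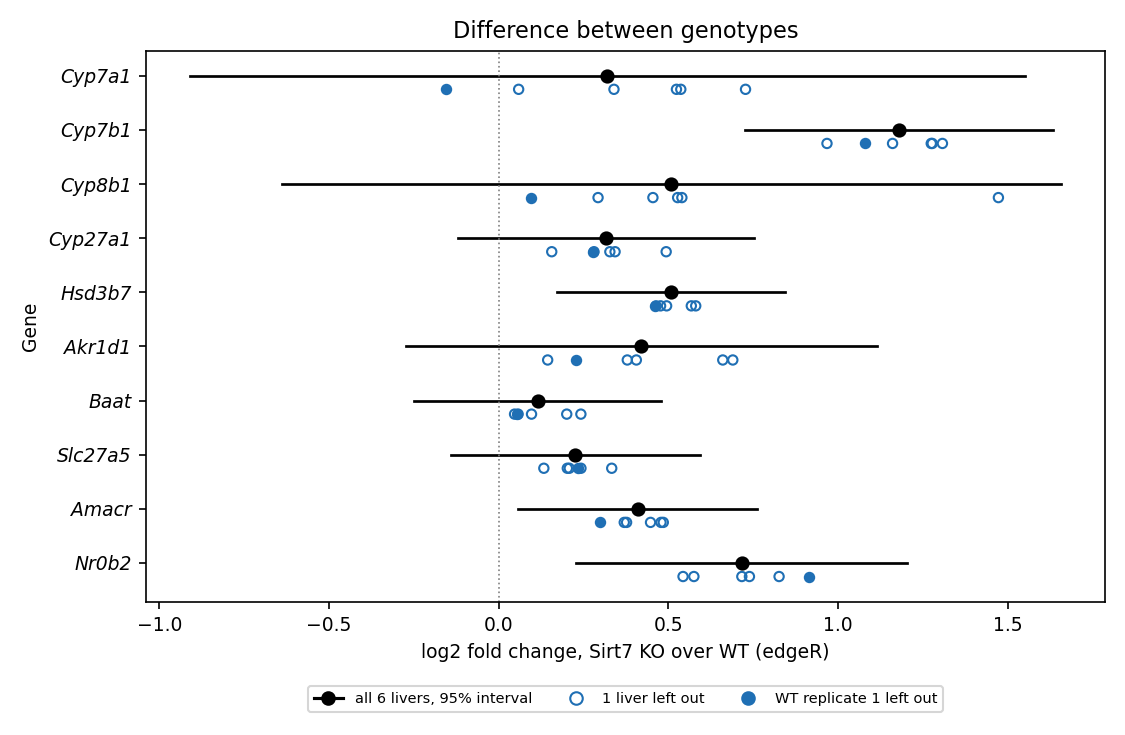
Log2 fold change of each bile acid gene, *Sirt7* KO over WT, from edgeR, with all 6 livers as black points with 95% intervals and with 1 liver left out as blue circles, filled where WT replicate 1 is left out. The intervals of *Cyp7b1*, *Hsd3b7*, *Amacr* and *Nr0b2* lie above 0, and only *Cyp7a1* has a point below 0, at -0.16 without WT replicate 1.

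Over the 10 genes, WT replicate 1 was the lowest of the 6 livers in 6 and *Sirt7* KO replicates 2 and 3 were the highest in 4 each. On log2(CPM + 0.5), the mean deviation of the 10 genes from their mean over the 6 livers was -0.62, -0.05 and -0.12 in WT livers and 0.06, 0.36 and 0.38 in *Sirt7* KO livers. WT replicate 1 lay far below the others on this measure, and *Sirt7* KO replicate 1 lay nearest to WT replicates 2 and 3. When WT replicate 1 was set aside, the median log2 fold change of the 10 was 0.26, and 3 genes (*Cyp7b1*, *Hsd3b7* and *Nr0b2*) were higher at an unadjusted p under 0.05 in edgeR, beside 5.43% of all tested genes. When *Sirt7* KO replicate 1 was set aside instead, 6 genes were, with *Cyp27a1*, *Akr1d1* and *Slc27a5* in place of *Amacr*, beside 8.97% of all tested genes. All *Sirt7* KO livers lay above WT replicates 2 and 3 for the same 4 genes as above, and for 13.1% of all tested genes.

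**Figure D3:**
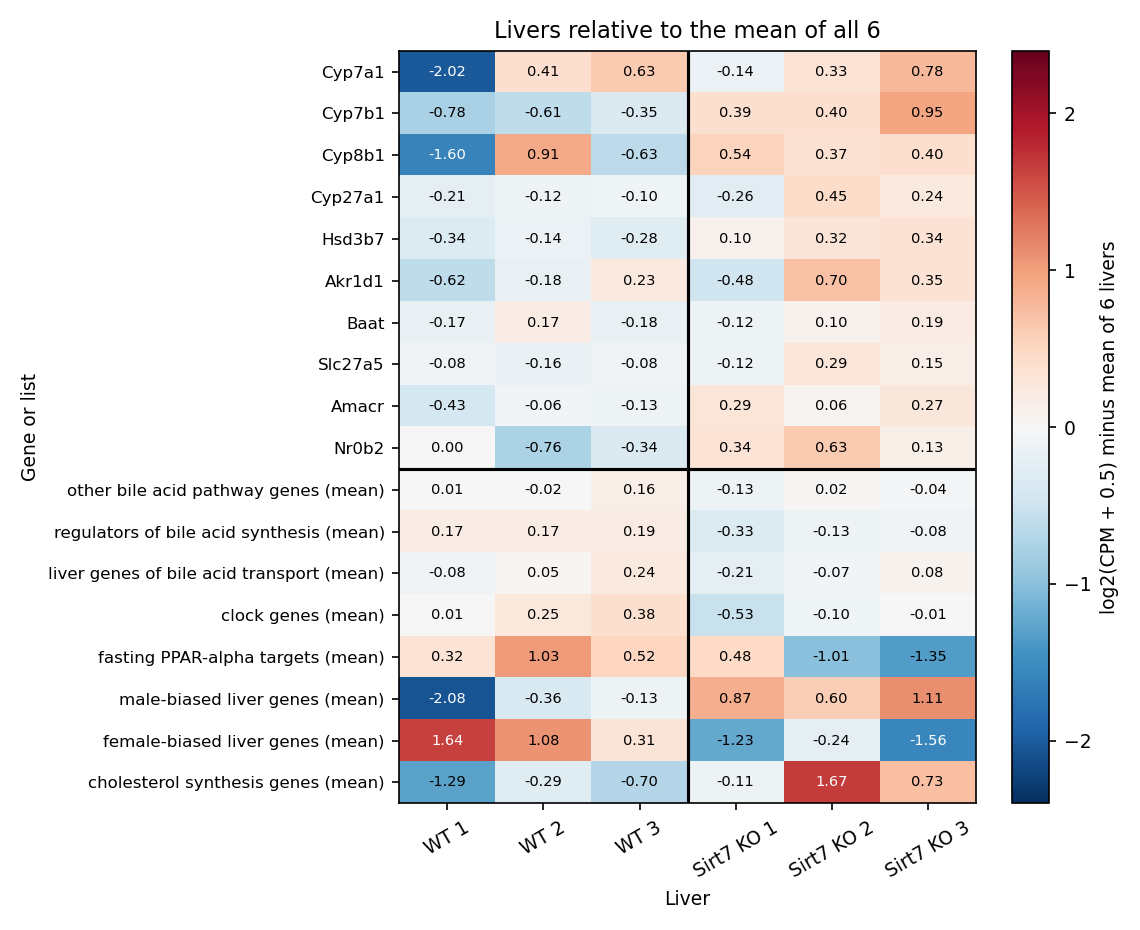
Deviation of each liver from the mean of all 6, in log2(CPM + 0.5), for each bile acid gene (upper rows) and as the mean over the tested genes of each other list (lower rows), with blue below and red above the mean. WT replicate 1 is the bluest column for *Cyp7a1*, *Cyp8b1* and the male-biased genes (-2.08), while *Sirt7* KO replicate 2 is highest for the cholesterol synthesis genes (1.67).

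Levels of different genes were compared per length, as TPM of the main transcript of each gene. *Slc27a5* was the most abundant, at 389 to 564 TPM over the 6 livers with a median of 449 TPM, and its range met only that of *Cyp8b1*. *Cyp8b1* (80.5 to 407, median 295 TPM), *Hsd3b7* (229 to 380, median 270 TPM) and *Cyp27a1* (189 to 329, median 224 TPM) followed with ranges that overlapped each other. *Baat* had 90.0 to 120 TPM with a median of 106 TPM, below the range of *Hsd3b7* and *Cyp27a1* and in overlap with that of *Nr0b2*. *Nr0b2* (median 72.9 TPM), *Cyp7b1* (median 68.0 TPM) and *Amacr* (median 58.7 TPM) did not separate, as their ranges of 37.6 to 102 TPM, 42.4 to 132 TPM and 50.3 to 73.8 TPM overlapped. *Akr1d1* came next, at 21.6 to 52.5 TPM, and overlapped with these. By its main transcript *Cyp7a1* lay below all others in every liver, at 2.10 to 14.0 TPM with a median of 10.3 TPM. The enzyme that limits the classic route thus had the least abundant main transcript of the 10 in these fasted livers, and the bile acyl-CoA synthetase the most abundant by median. The order differed with TPM summed over all transcripts of a gene, as first planned. *Cyp7a1* then had 81.62 TPM in WT replicate 3 and 77.09 TPM in *Sirt7* KO replicate 3, above *Akr1d1* at 38.97 and 42.45 TPM. *Amacr* then had a median of 127.8 TPM, above *Baat* at 106.1 TPM.

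The transcripts behind these totals were mostly single. *Cyp7b1*, *Cyp8b1* and *Nr0b2* have 1 transcript in the annotation. For *Cyp7a1* the full transcript (ENSMUST00000029905.1, 4172 bases) took 108, 563 and 792 estimated reads in WT livers and 380, 457 and 681 in *Sirt7* KO livers. A second transcript of 228 bases took 0 to 1.88% of the gene's reads, yet in TPM it raised the gene to as much as 81.6 TPM, since few reads on a very short effective length weigh heavily on that scale. For *Hsd3b7*, which has 13 transcripts, the main one took 82.4 to 92.1% of the reads. For *Amacr* a shorter second transcript took 12.7 to 18.7%.

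The genes whose log2(CPM + 0.5) followed *Cyp7a1* most closely over the 6 livers were *Them7* (Pearson's r = 0.990), *Nid2* (r = 0.988) and *Gpr146* (r = 0.981). Like *Cyp7a1*, they were lowest in WT replicate 1, at 10.6, 1.36 and 42.1 CPM. Those that followed *Cyp7b1* were *Nucb1*, *Ppip5k1* and *Krtcap2* (r = 0.992 for each). These are the highest of 12524 genes over only 6 livers that share the genotype split, and are a description.

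The other lists are read against the same shares of all tested genes, 6.54% higher and 4.78% lower at an unadjusted p under 0.05 in edgeR. Their calls in DESeq2 without length offsets are read against the 1.77% of all genes that it called. Calls in edgeR without *Sirt7* KO replicate 1 are read against 1.95%. Of 14 further genes of the bile acid pathway, 13 were tested, of which 1 was higher and 3 were lower in *Sirt7* KO livers at that p, and 0 were called (2 in DESeq2). The number lower was 1 without WT replicate 2 and 5 without WT replicate 1, and the median log2 fold change was -0.16. *Cyp39a1*, the 7-alpha-hydroxylase of 24-hydroxycholesterol, had 21.8, 6.44 and 15.6 CPM in WT livers and 4.03, 4.87 and 1.73 CPM in *Sirt7* KO livers, all below the WT livers (log2 fold change -2.05, SE 0.49, edgeR adjusted p = 0.175). *Cyp2c70*, which makes the muricholic acids of the mouse, had 336, 129 and 309 CPM in WT livers and 480, 800 and 832 CPM in *Sirt7* KO livers, all above the WT livers (log2 fold change 1.45, SE 0.36, edgeR adjusted p = 0.187). The other genes of the list included *Acot8*, a peroxisomal thioesterase, at a log2 fold change of -0.68 (edgeR adjusted p = 0.344). Of the pair of oxysterol 7-alpha-hydroxylases, *Cyp7b1* was thus higher and *Cyp39a1* lower in every *Sirt7* KO liver than in any WT liver.

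Among 18 regulators of bile acid synthesis, all tested, 0 were higher and 8 were lower in *Sirt7* KO livers at an unadjusted p under 0.05, beside 4.78% of all tested genes, and 0 were called (edgeR, 1 in DESeq2). In 6 of the 18 every *Sirt7* KO liver lay below every WT liver, as in 8.09% of all tested genes. The number lower depended on single livers, with 3 without *Sirt7* KO replicate 2, 4 without WT replicate 3, 5 without *Sirt7* KO replicate 3 and 7 to 9 without one of the others. The median log2 fold change was -0.39, and lay between -0.41 and -0.35 over the livers left out. *Nr1i3*, the xenobiotic receptor CAR, had 452, 630 and 713 CPM in WT livers and 310, 288 and 327 CPM in *Sirt7* KO livers (log2 fold change -0.96, SE 0.19, edgeR adjusted p = 0.145). *Nr5a2*, which encodes LRH-1, an activator of *Cyp7a1* and *Cyp8b1*, had 10.8, 13.4 and 8.43 CPM in WT livers and 6.78, 5.72 and 6.46 CPM in *Sirt7* KO livers (log2 fold change -0.78, SE 0.24, edgeR adjusted p = 0.258). *Rxra*, the partner of FXR, LXR and PPAR-alpha, had 129, 129 and 127 CPM in WT livers and 100, 93.5 and 99.3 CPM in *Sirt7* KO livers (log2 fold change -0.40, SE 0.13, edgeR adjusted p = 0.282). All 3 receptors, named for having the smallest p of the 18, were lower in every *Sirt7* KO liver than in any WT liver. All 9 listed genes of synthesis and conjugation and *Nr0b2* had higher means. Of the 13 other pathway genes tested, only 5 had a log2 fold change above 0.

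Of 11 liver genes of bile acid transport, 9 were tested, of which 1 was higher and 1 was lower at an unadjusted p under 0.05 (edgeR), which is near the 6.54% and 4.78% of all tested genes, with a median log2 fold change of -0.10 and 0 called (1 in DESeq2 without and 0 with length offsets). *Abcb11*, the bile salt export pump and an FXR target like *Nr0b2*, had 136, 104 and 152 CPM in WT livers and 133, 263 and 271 CPM in *Sirt7* KO livers. *Sirt7* KO replicate 1 lay within the WT range, while *Sirt7* KO replicates 2 and 3 lay above it (log2 fold change 0.77, SE 0.27, edgeR adjusted p = 0.336). With length offsets in edgeR the value was 0.44 (unadjusted p = 0.114), and in limma on TPM it was 0.38. *Abcb4*, the phospholipid export pump, had 244, 309 and 255 CPM in WT livers and 209, 130 and 158 CPM in *Sirt7* KO livers, without overlap (log2 fold change -0.70, SE 0.20, edgeR adjusted p = 0.227). *Abcc4*, a basolateral exporter, had a log2 fold change of -0.95 (SE 0.44, edgeR adjusted p = 0.464) at 0.771 to 2.09 CPM, and of -0.29 in limma on TPM.

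**Figure D4:**
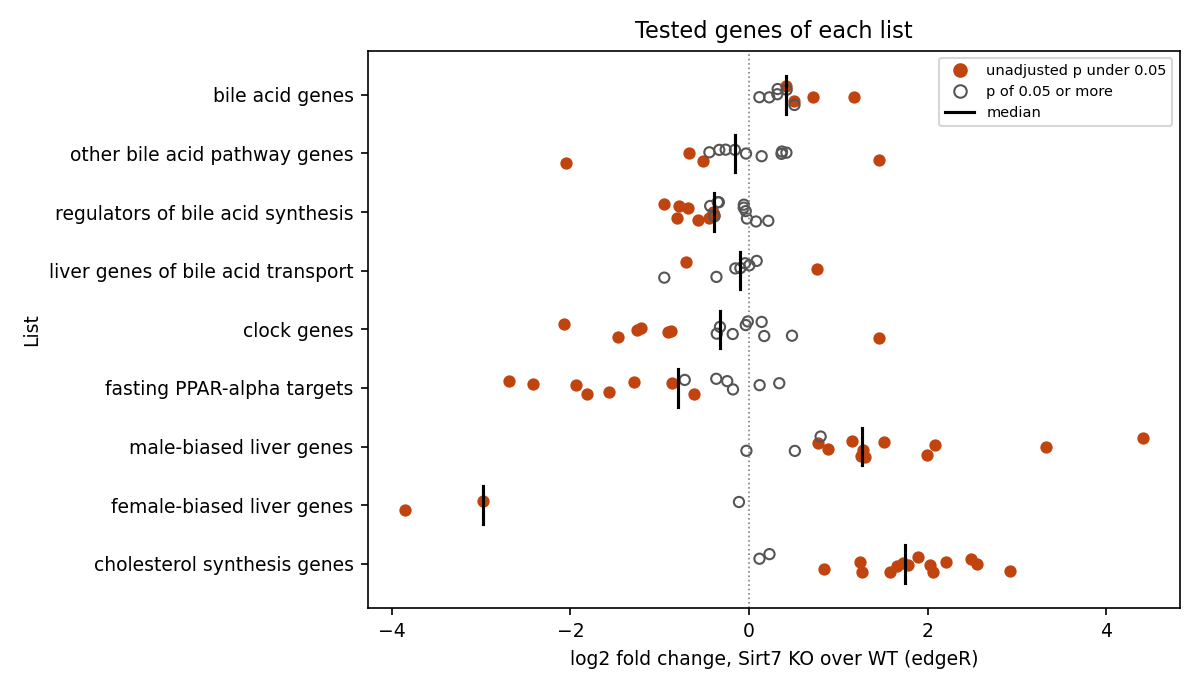
Log2 fold change, *Sirt7* KO over WT, of every tested gene of each list, filled where the unadjusted edgeR p is under 0.05, with the list's median as a bar. The 10 bile acid genes all lie above 0 with a median of 0.42, and the regulators of the pathway lie mostly below 0 with a median of -0.39.

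Other programs to which these genes are known to respond also differed among the livers, and their part in the values above was not tested. *Cyp7b1* is male-biased in mouse liver. Of 14 male-biased genes, 11 were higher and 0 lower at an unadjusted p under 0.05, beside 6.54% and 4.78% of all tested genes, with 0 called and a median log2 fold change of 1.27 (edgeR). Over the livers left out the number higher was 10 or 11 and the median 0.92 to 1.57. DESeq2 called 5 of the 14, beside 1.77% of all genes it tested. *Hsd3b5* had 0.423, 2.72 and 7.62 CPM in WT livers and 37.8, 70.5 and 126 CPM in *Sirt7* KO livers (log2 fold change 4.41, SE 0.75, edgeR adjusted p = 0.104). The complement gene *C8a* (0.89, edgeR adjusted p = 0.123) and the peroxisomal *Nudt7* (1.26, edgeR adjusted p = 0.168) also had every *Sirt7* KO liver above every WT liver. The mean deviation of the list was -2.08, -0.36 and -0.13 in WT livers and 0.87, 0.60 and 1.11 in *Sirt7* KO livers. *Cyp7b1* had the same order among WT livers and, like the list, its highest level in *Sirt7* KO replicate 3. It was level at 206 CPM in *Sirt7* KO replicates 1 and 2, where the list differed. Its WT range of 90.9 to 123 CPM was also narrower on the log2 scale than that of the list.

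Of 13 female-biased genes only 3 were expressed enough to be tested, of which 0 were higher and 2 lower at an unadjusted p under 0.05 (edgeR), beside 4.78% of all tested genes lower. *Acot3* had 55.8, 193 and 192 CPM in WT livers and 38.3, 12.1 and 5.49 CPM in *Sirt7* KO livers (log2 fold change -2.98, edgeR adjusted p = 0.168). Among *Sirt7* KO livers *Acot3* had the same order as the fasting targets of PPAR-alpha below, whose mean deviations were 0.48, -1.01 and -1.35. Which of these programs it followed was not tested. *Cyp2b9* rested on WT replicate 1, with 154, 12.3 and 4.07 CPM in WT livers and 1.28, 8.05 and 2.60 CPM in *Sirt7* KO livers, so its log2 fold change of -3.85 was -1.05 without that liver. *Cyp17a1* had a log2 fold change of -0.11 (edgeR adjusted p = 0.958), which turned to 0.13 with length offsets and to 0.30 without *Sirt7* KO replicate 1.

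The clock acts on *Cyp7a1* and *Nr0b2*, and the time of day of collection is not given in the sources used here. Of 15 clock genes tested, of 16 listed, 1 was higher and 6 were lower at an unadjusted p under 0.05, beside 6.54% and 4.78% of all tested genes, with a median log2 fold change of -0.33 and 0 called (edgeR, 2 in DESeq2). Without WT replicate 3 the number lower was 1 and the median -0.11, and without any other single liver 4 to 6 were lower. *Tef* had 95.4, 114 and 146 CPM in WT livers and 44.8, 65.4 and 83.2 CPM in *Sirt7* KO livers (log2 fold change -0.88, edgeR adjusted p = 0.224). *Per3* (-1.47, edgeR adjusted p = 0.282) and *Ciart* (-2.08, edgeR adjusted p = 0.283) overlapped between the genotypes. *Arntl*, the 1 gene higher, had 4.57, 3.09 and 1.11 CPM in WT livers and 9.71, 10.2 and 4.05 CPM in *Sirt7* KO livers (log2 fold change 1.45, edgeR adjusted p = 0.339). The mean deviation of the list pools genes that went in opposite directions. It was 0.01, 0.25 and 0.38 in WT livers and -0.53, -0.10 and -0.01 in *Sirt7* KO livers. *Cyp7a1* had the same order as this mean within each genotype, lowest in replicate 1 and highest in replicate 3. *Arntl* had the reverse order in WT livers.

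Fasting acts on *Cyp8b1* through PPAR-alpha. Of 14 fasting targets of PPAR-alpha, 0 were higher and 8 lower at an unadjusted p under 0.05, beside 4.78% of all tested genes lower, with a median log2 fold change of -0.79 and 0 called (edgeR, 1 in DESeq2). The number lower was 4 without WT replicate 2 and 5 without *Sirt7* KO replicate 2 or 3. Without *Sirt7* KO replicate 1 it was 11, with a median of -1.76, and 6 were called, beside 1.95% of all tested genes. *Cyp4a14* had 2751, 3182 and 2049 CPM in WT livers and 884, 268 and 82.8 CPM in *Sirt7* KO livers (log2 fold change -2.69, edgeR adjusted p = 0.202). *Cyp4a10* (-1.81, edgeR adjusted p = 0.202) and *Acadm* (-0.61, edgeR adjusted p = 0.254) also did not overlap. The list was highest in WT replicate 2, which had the highest *Cyp8b1*, with a mean deviation of 1.03, and was at 0.48, -1.01 and -1.35 in *Sirt7* KO livers, among which *Cyp8b1* hardly varied.

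Cholesterol is the substrate of the pathway. Of 16 genes of cholesterol synthesis and uptake, 14 were higher and 0 lower at an unadjusted p under 0.05, beside 6.54% of all tested genes higher, with a median log2 fold change of 1.75 and 0 called (edgeR, 5 in DESeq2). Over the livers left out 13 or 14 were higher. The median was 1.16 without *Sirt7* KO replicate 2, and 11 were called without *Sirt7* KO replicate 1, beside 1.95% of all tested genes. *Mvd* had 3.05, 4.72 and 4.22 CPM in WT livers and 9.98, 28.3 and 11.9 CPM in *Sirt7* KO livers (log2 fold change 2.06, edgeR adjusted p = 0.145). *Idi1* (1.78, edgeR adjusted p = 0.152) and *Dhcr7* (2.21, edgeR adjusted p = 0.166) had the same lack of overlap. *Sirt7* KO replicate 2 was the highest liver in all 16 genes, but among the 10 bile acid genes it was highest in 4.

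Markers of other cells gave 0 genes at an unadjusted p under 0.05 in the lists for cholangiocytes, Kupffer cells, sinusoidal endothelium, stellate cells and lymphocytes (edgeR), but only 4 of 6 cholangiocyte markers and 1 of 6 lymphocyte markers had the reads to be tested. None of the 6 hepatocyte markers passed either. In *Sirt7* KO livers 1 of 7 tested pericentral markers was higher and 1 of 7 periportal markers was lower, beside 6.54% and 4.78% of all tested genes. The median log2 fold change was 0.18 in the pericentral list and 0.34 in the periportal list. Cholangiocyte markers summed to 47.3 to 72.7 CPM in WT livers and 53.4 to 71.0 CPM in *Sirt7* KO livers, with the defining *Krt19* at 0.423 to 1.59 CPM. Kupffer cell markers summed to 38.7 to 131 CPM and 40.3 to 111 CPM, endothelial markers to 72.9 to 89.2 CPM and 76.3 to 110.1 CPM, stellate markers to 163 to 206 CPM and 128 to 209 CPM, and lymphocyte markers to 3.09 to 5.76 CPM and 2.41 to 5.40 CPM. Each of these sums overlapped between the genotypes.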

How the data were processed

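Liver RNA-seq of 3 WT and 3 *Sirt7* KO mice was used, with genotypes taken from the sample labels. Per the submitters' processing notes, reads were trimmed with Trim Galore 0.6.5 and quantified with Salmon 1.2.1 on GRCm38. For each liver, the authors deposited estimated counts of reads per transcript, which are not normalized. They also deposited TPM, which Salmon scales to transcript length and to a fixed total per liver. Replicates were not pooled. The transcripts' annotation release is not given in the sources used here.

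The estimated counts were summed per gene of GENCODE M21 (GRCm38) and rounded. Of 140992 transcripts, 139172 matched with the same version and 619 with another, and 1201 without a gene there (0.303 to 0.492% of reads) were left out. Livers of a genotype differed from each other beyond counting error (chi-square per gene 17.7 to 75), so each counted as 1 sample. Replicate 1 stood furthest from the others in both genotypes. Its chi-square was 65.4 and 75 in WT, beside 26.2 between WT replicates 2 and 3. In *Sirt7* KO it was 61.4 and 48.7, beside 17.7 between *Sirt7* KO replicates 2 and 3.

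Genes were tested with edgeR 4.0.16 in R 4.3.3 (quasi-likelihood, TMM, filterByExpr with a minimum count of 10, Benjamini-Hochberg adjustment), which left 12524 genes with a common biological coefficient of variation of 26.4%. Intervals are at 95%. Single genes were also compared by two-sided exact permutation of log2(CPM + 0.5) with SciPy 1.17.1. Of the fits, only edgeR with the main settings was first tested on simulated counts. TPM entered the levels per length, the length offsets and a limma 3.58.1 fit of log2(TPM + 0.5), whose fold changes understate those of low genes. DESeq2 1.42.0 was an alternative, with and without length offsets, of which the former follows the study's methods. Others were RLE, upper quartile and total counts in place of TMM, no filter on low counts or a minimum mean count of 50, a replicate block, different thresholds, and leaving out each liver. TPM of the main transcript, for the levels and the ratios, and the count of non-overlapping genes without WT replicate 1 were chosen after seeing the data.

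The 10 genes and all other lists were chosen with earlier results of these data known, and support nothing by themselves. The genes named are the 10, *Sirt7*, in each other list the 3 with the smallest p, the 3 genes that follow *Cyp7a1* or *Cyp7b1* most closely, and the markers listed first. *Apol9b*, *Gm49388*, *9430064I24Rik* and *Arntl* were named after their values were seen. Promoter sequences are from RefSeq (GRCm38.p6), of which 5 of the 10 genes had one. A comparison of the P450 proteins was planned and not run. No molecular identifiers are stated, so depth covers counting error only.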

Additional observations from a re-analysis of the deposited data

How the results depend on the processing

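The 10 bile acid genes under 16 alternatives gave 160 log2 fold changes, of which 153 kept their sign and their side of the call threshold, 6 passed it and 1 turned. The exception in sign was *Cyp7a1*, at -0.16 without WT replicate 1 (range 0.73 to -0.16 over the livers left out in turn). *Cyp7b1* passed at 1.19 with no filter, 1.19 in DESeq2 (1.188 without and 1.191 with length offsets) and 1.28 without *Sirt7* KO replicate 1, with a range of 0.97 to 1.31 over the livers left out, and *Nr0b2* passed at 0.73 with no filter. The number of the 10 genes called, 0 as reported, was 2 with no filter, 1 in DESeq2 with or without length offsets, 0 to 1 with a liver left out, and 2 at an unadjusted p under 0.05 with a fold change over 1.5. For all tested genes the count, 1 as reported, was 633 with no filter, 256 in DESeq2, 242 in DESeq2 with length offsets, 2 with total counts and with length offsets in edgeR, 0 to 252 with a liver left out (252 without *Sirt7* KO replicate 1), and 925 at an unadjusted p under 0.05 with a fold change over 1.5. The cause of these changes was not tested, and the calls with no filter have the limit on SEs given above.

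The replicate block gave 1 call among the 10 genes, *Cyp7b1* at a log2 fold change of 1.17 (edgeR adjusted p = 0.0409), and 41 among all genes. The sources used here name no pairing of the livers. Same-numbered deviations correlated at 0.07, 0.08 and -0.04. WT replicates 1 and 2 correlated best with their own number, and WT replicate 3 did not. With 3 livers a genotype, these correlations cannot decide whether the numbers pair the livers. The block changed no other call among the 10 genes.

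Total counts moved the median log2 fold change of all genes to -0.11. In limma on TPM, *Cyp7a1* stood at 0.93, with the short transcript counted per length. With 3 livers a genotype and WT livers that differed widely in both genes, the intervals of *Cyp7a1* and *Cyp8b1* were too wide to place either gene above or below its WT level. Sign changes of the gene ratios to *Cyp7a1* with a liver left out are within the spread between livers.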
